A study of Caenorhabditis elegans with 6 samples.

Results

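Of 12784 protein-coding genes with a mean of at least 1 FPKM in whole Caenorhabditis elegans, 24 were kept as consistently lower after tryptophan feeding. FPKM is fragments per kilobase of gene model, scaled to library size, so it can be compared between genes as a level per length. A gene was kept when its lowest control value plus 1 was at least 1.3 times its highest tryptophan value plus 1, and large families with their own symbols (cytochrome P450, lectin, collagen, histone, nuclear receptor and others) were left out. The choice was made on the same values that are described here, so the difference between the groups is a property of the choice and carries no test. The ratio was reached by 30 protein-coding genes of any symbol, which is 0.235% of the 12784. The 6 left out by their symbols were clec-48, fat-7, his-31, col-181, lips-15 and nhr-114. The same ratio in the higher direction was reached by 76 genes, or 0.594%.

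Wild-type (WT) hermaphrodites were grown at 20 °C to the fourth larval stage (L4) and sampled 36 h later as young adults. Of the 6 libraries, 3 were from control animals and 3 from animals fed 5 mM tryptophan over those 36 h, and each was made from RNA of whole bodies. Libraries carry the replicate numbers 1 to 3 within a group, and no label states if separate cultures stand behind them, so errors here rest on libraries. An SD is the spread between the libraries of a group. An SE is from limma, which also draws on the spread of other genes. In whole animals, fewer cells of a type and less RNA per cell cannot be told apart.

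Depth was read from the spacing of low values and came to an estimated 14.5 to 24.7 M (mega) counted units per library. Control 1 and tryptophan 1 stood apart from the other 4 libraries. The 18 oocyte markers summed to 10071 FPKM in control 1, to 2441 and 2308 in controls 2 and 3, and to 1118, 2704 and 1917 in tryptophan 1 to 3. The 23 sperm markers summed to 306 FPKM in control 1, 15145 in tryptophan 1 and 3407 to 5503 in the other 4 libraries. The 6 hypodermis markers summed to 94.0 FPKM in control 1 and to 261 to 491 FPKM elsewhere, and the 5 body wall muscle markers to 433 FPKM in tryptophan 1 and to 1245 to 2239 FPKM elsewhere. Markers of intestine, hypodermis, body wall muscle, pharynx, neurons and coelomocytes were all detected in every library, and none of the markers is among the 24 genes. Of the 6 early embryo markers 0 reached a mean of 1 FPKM. Over all 13511 genes tested, limma called 0 genes at an adjusted p under 0.05 (0% in either direction), and 158 had an unadjusted p under 0.05. In libraries 2 and 3 alone it called 34 genes in each direction (0.252%), 0 of them among the 24.

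The 24 genes do not form a pathway. They encode metabolic enzymes, a presenilin, a nuclear envelope protein, regulators of transcription, receptors and a DNA repair enzyme. For 12 of them the annotation gives only a sequence name, which is 50% against 42.4% of all protein-coding genes tested. Propionate, which arises from the breakdown of branched-chain amino acids and odd-chain fatty acids, is degraded in worms by a route that needs vitamin B12 and by a shunt used when that vitamin is scarce. Presenilin is the catalytic subunit of gamma-secretase, the protease that cuts Notch receptors within the membrane. Emerin is an inner nuclear membrane protein that binds lamin and chromatin.

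The highest levels belonged to enzymes of the propionate shunt. acdh-1 (C55B7.4, WBcel235 chromosome I, 6497436 to 6499560) encodes the acyl-CoA dehydrogenase that opens the shunt. It stood at 623, 682 and 724 FPKM in controls 1 to 3 and at 375, 442 and 304 FPKM in tryptophan 1 to 3. hphd-1 (Y38F1A.6, chromosome II, 12994354 to 12996571) encodes the dehydrogenase of the 3-hydroxypropionate step. It stood at 435, 395 and 436 FPKM in the controls and at 241, 293 and 183 FPKM with tryptophan. For both genes control 1 lay close to controls 2 and 3, and every control library lay above every tryptophan library. Group means were 676 ± 50.6 and 374 ± 69.2 FPKM for acdh-1 and 422 ± 23.7 and 239 ± 55.0 FPKM for hphd-1 (SD, n = 3 each). The log2 fold changes of FPKM + 1 were -0.87 (SE 0.32) and -0.84 (SE 0.34). When each library was rescaled to the same sum (TPM), the groups of acdh-1 overlapped, at 615 TPM in control 1 and 618 TPM in tryptophan 2.

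Of the other shunt genes, hach-1 was also lower in every tryptophan library. hach-1, a hydrolase of the shunt, stood at 346, 250 and 288 FPKM in the controls and at 202, 174 and 129 FPKM with tryptophan, and its ratio of 1.24 kept it outside the rule. ech-6, the hydratase of the shunt, overlapped through tryptophan 1, at 811 FPKM against 358 and 233 FPKM in tryptophan 2 and 3 and 643, 644 and 797 FPKM in the controls. alh-8, the last enzyme of the shunt, overlapped as well, at 972, 569 and 452 FPKM in the controls and at 114.6, 630.2 and 424 FPKM with tryptophan. In libraries 2 and 3 alone the log2 fold changes were -1.31 for ech-6, -0.84 for hach-1 and 0.03 for alh-8. The 4 genes of the vitamin B12 route (pcca-1, pccb-1, mce-1 and mmcm-1) had overlapping groups, with log2 fold changes from -0.77 to -0.08 over all libraries and from 0.04 to 0.13 in libraries 2 and 3. limma called 0 of all genes tested, and so 0 of the 3 shunt genes outside the rule and 0 of these 4. An unadjusted p under 0.05 was found for 0 of them, against 1.17% of all genes tested. So few genes cannot show a difference from that share.

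gpd-4 (F33H1.2, chromosome II, 10171268 to 10172498), one of the glyceraldehyde-3-phosphate dehydrogenase (GAPDH) genes of glycolysis, was the gene nearest the threshold, at a ratio of 1.31. It stood at 204, 86.4 and 82.2 FPKM in the controls and at 56.5, 62.5 and 62.6 FPKM with tryptophan, so control 1 was 2.42 times the mean of controls 2 and 3. The other 3 GAPDH genes also had groups that did not overlap, as was so in the lower direction for 4.32% of all genes tested. Their nearest libraries lay at 109 (control) and 99.4 (tryptophan) FPKM for gpd-1, 264 and 241 FPKM for gpd-2, and 417 and 369 FPKM for gpd-3. limma called 0 of the 3, as of all genes tested, and 0 had an unadjusted p under 0.05, against 1.17% of all genes tested. GAPDH genes resemble one another closely, and the split of reads between them by the authors' counting is uncertain. After rescaling to TPM the groups of gpd-4 overlapped, at 99.7 TPM in control 3 and 103 TPM in tryptophan 3.

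**Figure D1:**
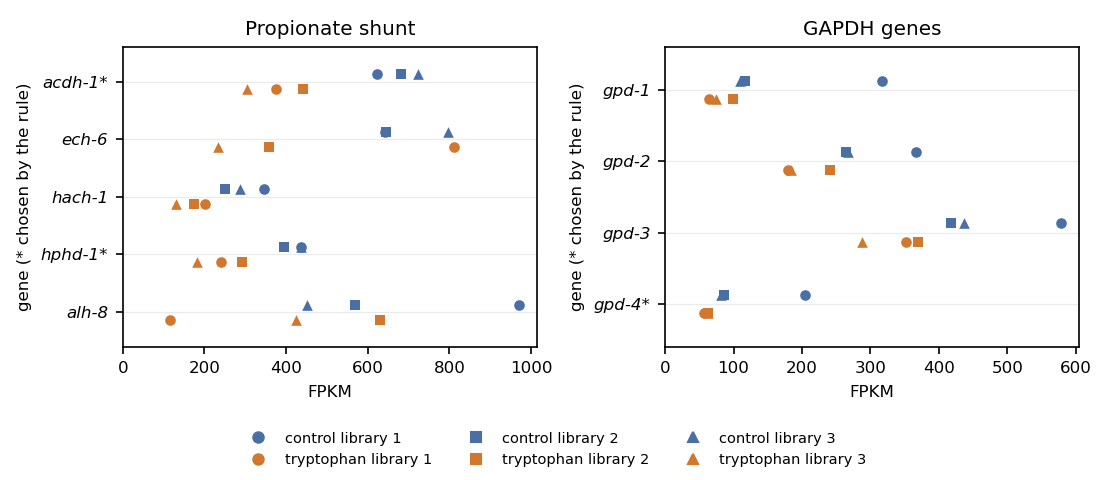
FPKM of the 5 propionate shunt genes (left) and the 4 GAPDH genes (right), 1 point per library, with control in blue and tryptophan in orange and the marker shape giving the library number. Asterisks mark genes chosen by the rule. The groups are apart for acdh-1, hach-1 and hphd-1, while tryptophan 1 lies at 811 FPKM for ech-6.

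Among genes of signalling and of the cell's membranes, sel-12 (F35H12.3, chromosome X, 915867 to 918290) encodes a presenilin. It stood at 14.7, 5.09 and 5.00 FPKM in the controls and at 1.70, 3.51 and 3.25 FPKM with tryptophan. Control 1 and tryptophan 1 are the extremes, and in libraries 2 and 3 the log2 fold change was -0.47 against -1.16 (SE 0.52) over all libraries. hop-1, another presenilin gene, and the gamma-secretase subunit genes aph-1, aph-2 and pen-2 had groups that overlapped, with log2 fold changes from -0.85 (hop-1) to -0.21 over all libraries. In libraries 2 and 3 they ran from -0.52 for pen-2 to 0.22 for aph-2, and hop-1 was at 0.16. The groups of glp-1, which encodes a Notch receptor, overlapped as well, with a log2 fold change of -1.04 over all libraries and 0.46 in libraries 2 and 3.

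srh-237 (T05E12.7, chromosome V, 17090379 to 17091714), of a family of predicted seven-transmembrane chemoreceptors, had the highest value of the ratio used by the rule. It stood at 12.2, 9.33 and 9.77 FPKM in the controls and at 1.91, 4.18 and 4.36 FPKM with tryptophan, a ratio of 1.93 between the nearest libraries after adding 1 to each and a log2 fold change of -1.39 (SE 0.43). Tryptophan 1 was the lowest library, and the mean of controls 2 and 3 was 2.23 times that of tryptophan 2 and 3. dmsr-4 (D1069.4, chromosome II, 348173 to 357069), of a family of predicted neuropeptide receptors named after the Drosophila myosuppressin receptor, stood at 4.92, 1.80 and 0.988 FPKM in the controls and at 0.342, 0.455 and 0.239 FPKM with tryptophan. Its ratio of group means, 7.43, was the largest of the 24, but it rests on few reads: an estimated 25 to 93 counted units in the controls and 8 to 12 with tryptophan.

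blos-7 (Y37E11B.3, chromosome IV, 3580970 to 3582906) was listed here with genes of BLOC-1, a complex in the making of lysosome-related organelles. Membership was not checked for each gene of that list, and some may belong to other complexes. blos-7 stood at 44.4, 18.2 and 19.3 FPKM in the controls and at 8.75, 12.5 and 11.4 FPKM with tryptophan. Of 8 other tested genes of that list, only snpn-1 (snapin) had groups that did not overlap, with 29.2 FPKM in control 2 and 28.1 FPKM in tryptophan 2 as the nearest libraries. The log2 fold changes of these 8 ran from -0.73 to -0.04 over all libraries and from -0.42 for blos-4 to 1.34 for glo-2 in libraries 2 and 3.

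Genes of the nucleus included emr-1 (M01D7.6, chromosome I, 1842445 to 1843227), which encodes emerin. It stood at 153, 70.3 and 70.8 FPKM in the controls and at 43.03, 52.4 and 36.6 FPKM with tryptophan, a log2 fold change of -1.05 (SE 0.43). Its partners lem-2, lmn-1 and baf-1, which encode another LEM-domain protein, the lamin and the barrier-to-autointegration factor, had groups that overlapped, with log2 fold changes of -1.19, -0.54 and -0.03 over all libraries and of -0.49, 0.04 and -0.60 in libraries 2 and 3. tdpt-1 (Y63D3A.4, chromosome I, 14097492 to 14101090), homologous to the human enzyme TDP2 that frees DNA ends from trapped topoisomerase, stood at 54.4, 23.1 and 25.9 FPKM in the controls and at 13.8, 15.4 and 14.0 FPKM with tryptophan. Its 3 tryptophan libraries were close together, and control 1 was 2.22 times the mean of controls 2 and 3.

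A pair of transcription factor genes differed in their pattern over libraries. tbx-9 (T07C4.6, chromosome III, 10340006 to 10341858), a T-box gene that acts in the embryo's body shape, stood at 36.8, 6.57 and 8.15 FPKM in the controls and at 4.40, 4.27 and 4.48 FPKM with tryptophan. Its level in control 1 was 5.01 times the mean of controls 2 and 3, and its log2 fold change was -1.36 (SE 0.66) over all libraries and -0.63 in libraries 2 and 3. ceh-99 (T21B4.17, chromosome II, 12519981 to 12524478), a homeobox gene, stood at 1.68, 1.86 and 1.60 FPKM in the controls and at 0.633, 0.821 and 0.808 FPKM with tryptophan. It had the lowest mean of the 24, at 1.23 FPKM, with an estimated 19 to 69 counted units per library, and its controls lay within a narrow range.

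**Figure D2:**
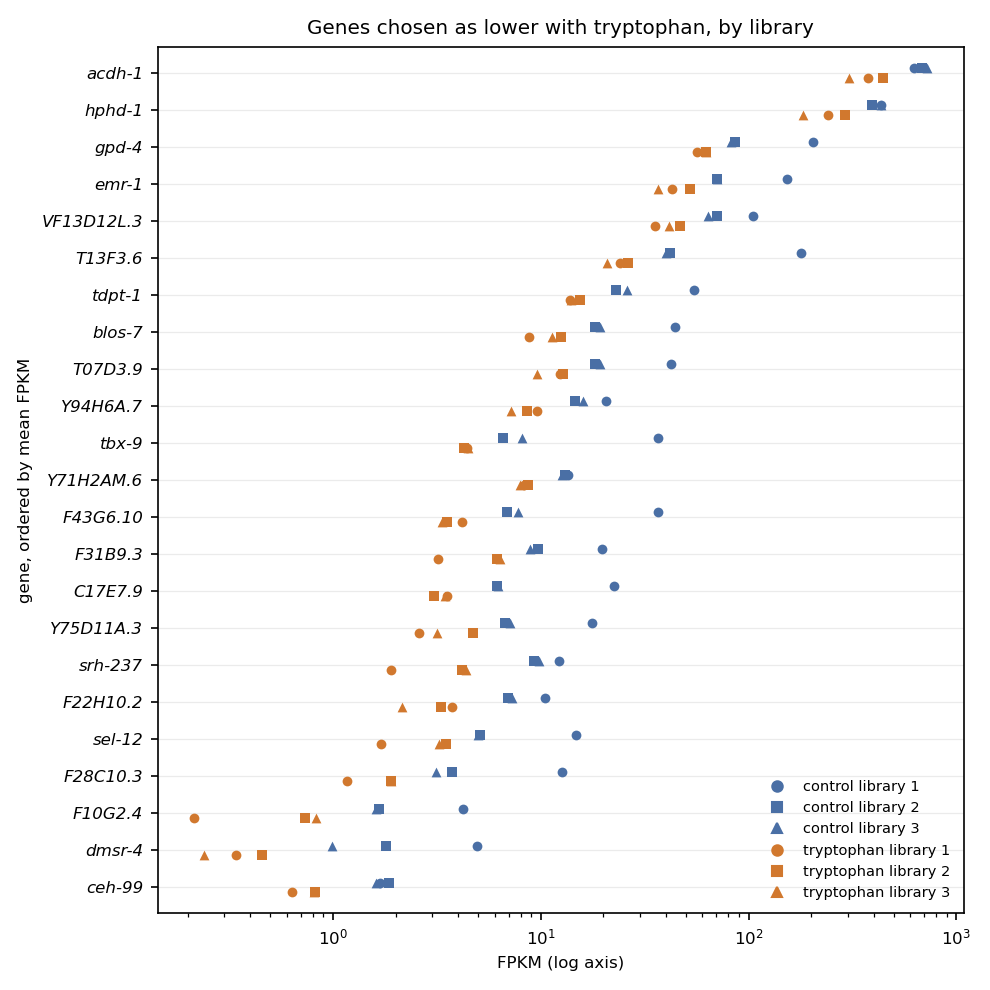
FPKM of 23 of the 24 chosen genes on a log axis, ordered by mean level, with 1 point per library (control in blue, tryptophan in orange, marker shape for library number). Levels run from 1.23 to 525 FPKM on average, and control 1 is the highest library for 20 of the 23 genes shown.

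The 12 genes with a sequence name only ranged from 1.54 FPKM on average for F10G2.4 to 60.5 FPKM for VF13D12L.3, and no role is given to them here. F22H10.2 (chromosome X, 16679540 to 16679797), the shortest, with 1 exon of 258 bases, stood at 10.5, 6.93 and 7.31 FPKM in the controls and at 3.73, 3.31 and 2.14 FPKM with tryptophan. Its log2 fold change was -1.19 (SE 0.40) over all libraries and -1.14 in libraries 2 and 3, the largest of the 24 there, with an estimated 14 to 39 counted units per library. F10G2.4 (chromosome V, 7327228 to 7327755), also of 1 exon, stood at 4.21, 1.67 and 1.61 FPKM in the controls and at 0.215, 0.730 and 0.829 FPKM with tryptophan, with an estimated 2 to 32 counted units per library. Y94H6A.7 (chromosome IV, 2713174 to 2716574) stood at 20.7, 14.6 and 16.1 FPKM in the controls and at 9.64, 8.56 and 7.15 FPKM with tryptophan. In this gene and in F22H10.2, tryptophan 1 was the highest of the tryptophan libraries, where srh-237 and sel-12 had their lowest value.

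F43G6.10 (chromosome II, 11809349 to 11810307) had the largest log2 fold change, -1.55 (SE 0.66), and also the largest excess of control 1. It stood at 36.7, 6.84 and 7.76 FPKM in the controls and at 4.19, 3.55 and 3.35 FPKM with tryptophan, and in libraries 2 and 3 the log2 fold change was -0.90. Its nearest neighbour, jmjd-1.1, 403 bases away on the same strand, was listed at 0 in control 1, stood at 4.44 and 6.18 FPKM in controls 2 and 3 and at 3.54, 6.29 and 5.13 FPKM with tryptophan, so its groups overlapped. F43G6.7, 482 bases away on the same strand, had groups that did not overlap either, with 5.32 FPKM in control 3 and 4.73 FPKM in tryptophan 3 as the nearest libraries. T07D3.9 (chromosome II, 898043 to 900913) stood at 42.3, 18.2 and 19.2 FPKM in the controls and at 12.3, 12.8 and 9.57 FPKM with tryptophan. Its controls 2 and 3 were close together, and control 1 was 2.26 times their mean.

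In F28C10.3, Y75D11A.3 and F31B9.3, as in sel-12, F10G2.4 and VF13D12L.3, control 1 was the highest and tryptophan 1 the lowest library. F28C10.3 (chromosome X, 531841 to 535828) stood at 12.6, 3.74 and 3.13 FPKM in the controls and at 1.17, 1.89 and 1.90 FPKM with tryptophan. Y75D11A.3 (chromosome X, 1745096 to 1746217) stood at 17.6, 6.70 and 7.15 FPKM in the controls and at 2.59, 4.69 and 3.17 FPKM with tryptophan. F31B9.3 (chromosome X, 15923740 to 15925169) stood at 19.7, 9.73 and 8.89 FPKM in the controls and at 3.199, 6.18 and 6.36 FPKM with tryptophan. In F28C10.3, Y75D11A.3 and F31B9.3 the step between control 1 and tryptophan 1 was wider than that between the other libraries, at 10.8, 6.78 and 6.16 times against 1.81, 1.76 and 1.48 times.

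Of the 24 genes, 6 overlap another annotated gene, and whether reads were counted by strand is not given in the sources used here. T13F3.6 (chromosome V, 16270300 to 16271221) stood at 179, 41.9995 and 40.2 FPKM in the controls and at 23.99, 26.3 and 20.9 FPKM with tryptophan. All 553 bases of its transcript lie in exons of T13F3.8 on the opposite strand, which stood at 0.259, 5.66 and 4.94 FPKM in the controls and at 24.8, 4.64 and 5.16 FPKM with tryptophan. Without strand, reads from these genes cannot be told apart, and the values of T13F3.6 are uncertain for that reason.

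C17E7.9 (chromosome V, 3889161 to 3890861) stood at 22.6, 6.17 and 6.25 FPKM in the controls and at 3.55, 3.06 and 3.47 FPKM with tryptophan. C17E7.13, which shares 128 exon bases with it on the same strand, ran the other way, at 0.0788, 1.249 and 1.52 FPKM in the controls and at 2.26, 2.59 and 2.61 FPKM with tryptophan. Both values are uncertain where the counting could split shared reads. VF13D12L.3 (chromosome II, 11706009 to 11713602) stood at 105, 70.7 and 64.1 FPKM in the controls and at 35.6, 46.5 and 41.6 FPKM with tryptophan, and shares 10 exon bases with fcmt-1 on the opposite strand.

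Y71H2AM.6 (chromosome III, 2781056 to 2782819) had close values within each group. It stood at 13.5, 13.03 and 12.6 FPKM in the controls and at 8.31, 8.72 and 7.96 FPKM with tryptophan, a log2 fold change of -0.59 (SE 0.37), the smallest of the set. That SE draws on the spread of other genes and is wider than the close values of Y71H2AM.6 alone would give. It lies within the span of cox-6B but shares 0 exon bases with it, and shares 89 exon bases with Y71H2AM.20 on the opposite strand. Y71H2AM.20 stood at 81.0, 40.9 and 41.5 FPKM in the controls and at 25.4, 39.0 and 36.1 FPKM with tryptophan, so its groups were apart in the same direction. Without strand, reads in the shared bases cannot be told apart, and the values of Y71H2AM.6 are uncertain to that extent. cox-6B reached 2051 FPKM in tryptophan 1 against 471 to 788 FPKM elsewhere, a peak that Y71H2AM.6 did not have. blos-7 and Y94H6A.7 share 23 and 61 exon bases with other genes of at most 1.92 and 2.21 FPKM.

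**Figure D3:**
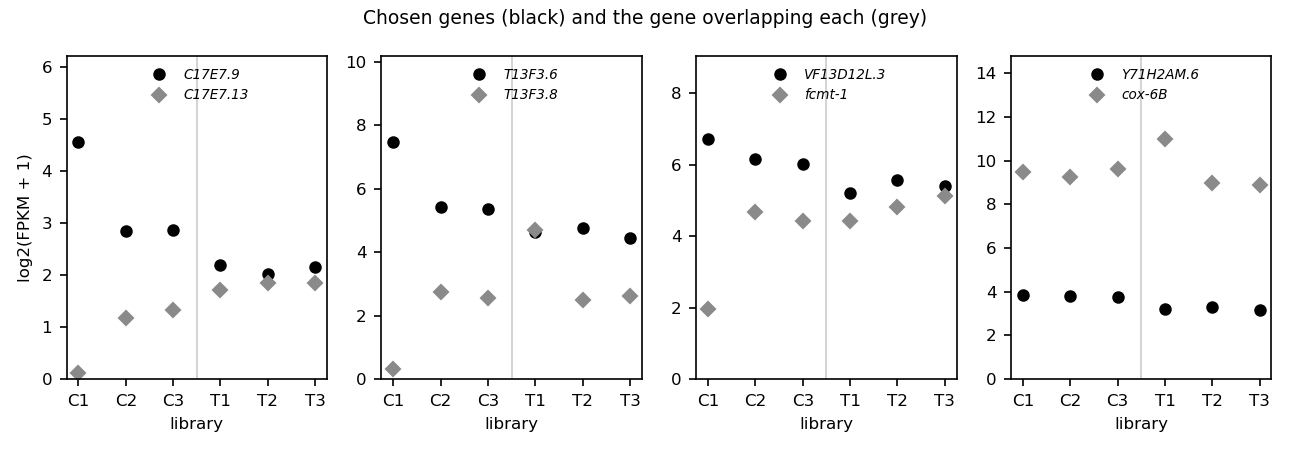
log2(FPKM + 1) by library (C, control; T, tryptophan) for 4 chosen genes in black and a gene that overlaps each in grey. C17E7.13 is higher in the tryptophan libraries, where C17E7.9 is lower, and cox-6B peaks in T1 (2051 FPKM) where Y71H2AM.6 does not. Y71H2AM.20, which shares exon bases with Y71H2AM.6, is not shown.

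The 24 genes differed from one another in where library 1 of each group lay. Control 1 was the highest control library for 21 of the 24, against 48.6% of all genes tested, and at least 1.5 times the mean of controls 2 and 3 for 17, against 35.3%. The ratio of control 1 to the mean of controls 2 and 3 ran from 0.886 for acdh-1 to 5.02 for F43G6.10, with a median of 2.24 against 1.08 over all genes tested. The rule asks that every control lie above every tryptophan library, so genes with control 1 far below the other controls could hardly be chosen. These shares and medians follow in part from that choice and are given as a description. Tryptophan 1 was the lowest library for 12 of the 24, tryptophan 3 for 10 and tryptophan 2 for 2. Over all genes tested the shares were 35.2%, 14.5% and 8.33%, but for the 24 the rule makes the lowest library a tryptophan one. Controls 2 and 3 lay within 1.3 times of each other for 23 of the 24, the exception being dmsr-4, against 65.3% of all genes tested. The rule rests on the lowest control, so genes with controls far apart were less likely to be chosen. This share too follows in part from the choice.

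The genes in which control 1 was within 1.5 times of the mean of controls 2 and 3 were srh-237, F22H10.2, Y94H6A.7, ceh-99, acdh-1, Y71H2AM.6 and hphd-1. That is 7 of the 24, close to the share of 29% over all genes tested. In the other 17 control 1 was in excess, and in that library the oocyte and yolk markers were highest and the sperm and hypodermis markers lowest. The 6 yolk genes summed to 19564 FPKM there, to 946 to 1865 FPKM in the other controls and to 406 to 3951 FPKM with tryptophan, and no oocyte or yolk marker was at 0 in any library. The 18 tested oocyte markers all had a lower mean with tryptophan, with groups that overlapped in each. Their average log2(FPKM + 1) was 8.87 in control 1 and 5.29 in tryptophan 1. In libraries 2 and 3 it was 6.85 and 6.76 in the controls and 7.05 and 6.49 with tryptophan. The part of all these markers in the values of those 17 genes was not tested. Without library 1 of either group, the log2 fold changes of the 24 ran from -1.14 for F22H10.2 to -0.42 for gpd-4 with a median of -0.70, against a median of -0.02 over all genes tested. Over all libraries they ran from -1.55 to -0.59 with a median of -1.13, against -0.03. These medians follow from the choice of the genes and are given as a description.

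**Figure D4:**
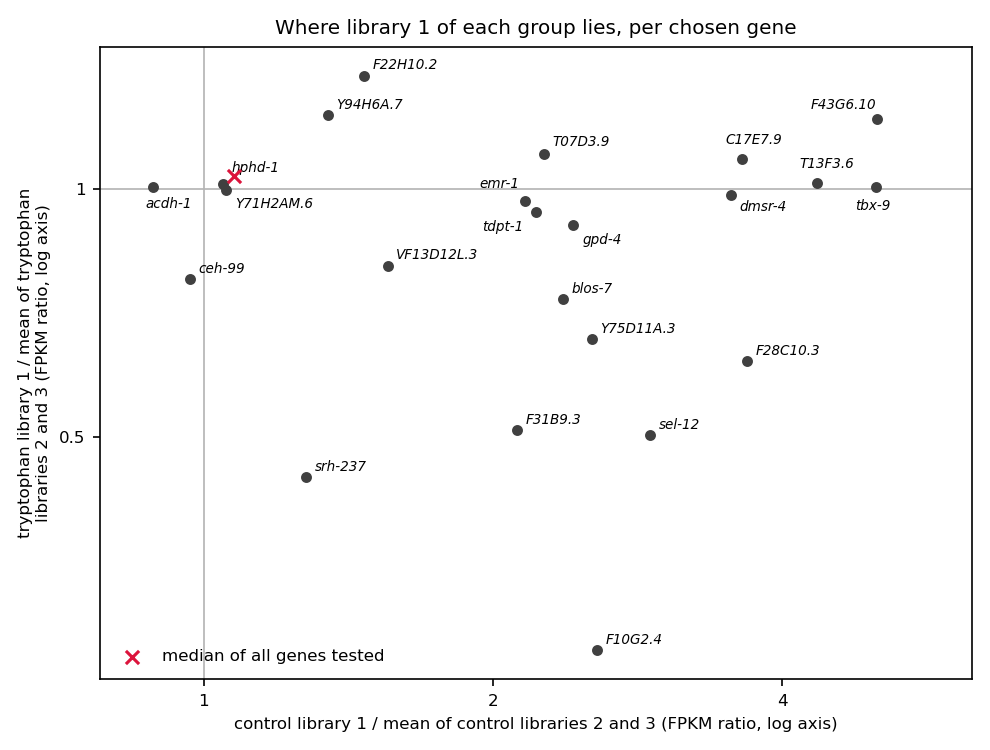
For 23 of the 24 genes, control 1 divided by the mean of controls 2 and 3 (x axis) and tryptophan 1 divided by the mean of tryptophan 2 and 3 (y axis), as FPKM ratios on log axes. The red cross is the median of all genes tested (1.08 and 1.04), and 16 of the 23 genes shown lie at 1.5 or more on the x axis.

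The genes of the lists named here that were not chosen by the rule numbered 26 with a tested level. All 26 had a negative log2 fold change over all libraries, against 52.3% of all genes tested. In libraries 2 and 3, 15 did, and the share over all genes was not counted there. Some values were near 0, with baf-1 at -0.03, blos-2 at -0.04 and mce-1 at -0.08. After rescaling to TPM these turned positive (0.08, 0.07 and 0.03), and the rest of the 26 stayed negative. Groups did not overlap in the lower direction in 5 of the 26 (hach-1, gpd-1, gpd-2, gpd-3 and snpn-1) against 4.32% of all genes tested, and in the higher direction in 0, against 3.98%. limma called 0 of the 26, as of all genes tested, and 0 had an unadjusted p under 0.05, against 1.17% of all genes tested. Within families that share a symbol, and leaving out the chosen gene of each, 23 of 28 tested homeobox (ceh) genes, 3 of 4 T-box genes, 7 of 12 acyl-CoA dehydrogenase (acdh) genes and 0 of 1 srh gene had a negative log2 fold change. So did 7 of 10 sel, 2 of 2 dmsr, 5 of 5 blos and 3 of 3 gpd genes, the blos and gpd genes being among the 26. These family counts are over all libraries and were not made for libraries 2 and 3.

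The chosen genes were spread over the genome, with 3 on chromosome I, 8 on II, 2 on III, 2 on IV, 4 on V and 5 on X. Chromosome II held 17.3% and chromosome X 13.3% of the protein-coding genes tested. No pair of the 24 lay within 10 kb of one another. Their longest transcripts had a median of 1106 bases and 4 exons, against 1328 bases and 6 exons over the protein-coding genes tested. Their mean level had a median of 10.7 FPKM against 14.9 FPKM.

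The threshold does not mark a break in the values. Just inside it were gpd-4 (ratio 1.31), sel-12 (1.33) and emr-1 (1.34). Just outside were F32D8.12, Y105E8A.1 and C05C10.5, each at a ratio of 1.29. F32D8.12 stood at 41.8, 31.8 and 34.3 FPKM in the controls and at 10.6, 24.3 and 19.5 FPKM with tryptophan.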

How the data were processed

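Each library has 1 table of FPKM values deposited by the authors, per the file headers. The submitters' processing notes list Bowtie 0.12.2, StringTie and the WBcel235 build. Annotation release, filters and strandedness: not given in the sources used here. Of 46589 identifiers 45899 were matched to the WBcel235 annotation (Ensembl release 115), whose coordinates are 1-based, and 690 were not. Depth came from the step of FPKM times transcript length over low values of genes with 1 transcript of at least 600 bases: 75.9% to 79.2% lay within 0.2 steps of a whole multiple, too few to rebuild reads, so no count model was used.

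The 24 genes and all lists were chosen with earlier results of these data known, and the pathway lists after the 24 genes were known. Of the 24, 23 are described singly, and 1 is counted but not reported here. For log2 fold changes, values were analysed as log2(FPKM + 1), which understates the change of low genes, over the 13511 genes with a mean of at least 1 FPKM. Standard errors are from limma 3.58.1 (R 4.3.3; group as the only term, eBayes with trend, two-sided, Benjamini-Hochberg adjustment over all genes tested, threshold 0.05). The eBayes step pulls the variance of each gene toward that of other genes, so an SE is not the spread of that gene alone. The limma and rule scripts were tested on simulated data. An exact test of 3 against 3 cannot go below p = 0.1. Promoter and protein sequences were not analysed here. The rule was applied in pandas 2.3.3 and numpy 2.4.6 (Python 3.11.15), and figures were drawn in matplotlib 3.10.9. The alternatives were other pseudocounts, filters, scalings and rule thresholds, a replicate block, other eBayes settings, and libraries left out.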

Additional observations from a re-analysis of the deposited data

How the results depend on the processing

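The number of genes that meet the rule was 24. It was 66 with a ratio of at least 1.2 and 6 with a ratio of at least 1.5. With 1 library left out it ran from 37 to 285, and it was 559 in libraries 2 and 3 only, where by construction fewer libraries have to stay apart. For the same reason all 24 genes had to meet the rule with libraries left out, which says nothing of stability. With rescaling to TPM 19 genes met it, of which 8 are among the 24, or 42.1% of the 19, with quantile normalization 32 genes, 18 of them among the 24, and with median rescaling 24 genes, 19 of them the same. The groups of all 24 stayed apart under median rescaling and quantile normalization, and of 22 under TPM, the exceptions being acdh-1 and gpd-4. Rescaling to TPM divides each library by its sum of FPKM, which ran from 608336 in tryptophan 3 to 1115620 in tryptophan 1. Why the sums differ was not tested. The choice of the genes fixes the negative sign of their log2 fold changes in most settings, so that sign says nothing of stability. Of 404 such values under other settings 13 moved by more than 1 SD between libraries. Of these, 7 moved toward 0 in libraries 2 and 3, among them blos-7 to -0.62, sel-12 to -0.47 and F31B9.3 to -0.50. With a pseudocount of 0.1, 3 moved away from 0 (dmsr-4 to -2.32, F10G2.4 to -1.92 and ceh-99 to -1.09). A large shift can stay within 1 SD where the libraries of a group differ widely. In libraries 2 and 3, tbx-9 went from -1.36 to -0.63 and F43G6.10 from -1.55 to -0.90, and neither is among the 13.

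Over all 6 libraries limma called 0 genes under every alternative run except libraries 2 and 3 only, where it called 68 (34 lower, 0.252% of the genes tested). Those 68 became 0 without a filter, 333 with a mean FPKM of at least 5, 27 with quantile normalization, 38 with rescaling to TPM, 261 with robust eBayes and 0 to 32 with 1 library left out, where the lone library is assumed to vary like the other group. Of the 24 genes 0 were among the 68, and 22 had an unadjusted p under 0.05, against 14% of all genes tested. With a mean FPKM of at least 5, 20 of the 24 were tested, and 5 were among the 333 called of 9615 genes. With robust eBayes, 2 of the 24 were among the 261 called of 13511 genes. The 24 genes were chosen on these values, so their counts are a description. Deviations from the group means correlated at -0.372, -0.296 and -0.344 for same-numbered libraries. With so few libraries per group this cannot show whether same-numbered libraries belong together, and no label states it. With a replicate block limma called 0 genes over all libraries, and 212 of 13511 in libraries 2 and 3, of which 1 is among the 24. Genes such as F10G2.4 and dmsr-4, with as few as 2 and 8 estimated counted units in a library, are limited by depth.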
